A study of Saccharomyces cerevisiae with 11 samples.

Results

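The genes described here are the 57 yeast genes that encode the proteins of the small (40S) ribosomal subunit, RPS0A (YGR214W) to RPS31 (YLR167W), together with ASC1 (YMR116C). They were chosen by name, and they are 57 of the 6668 coding sequences counted in the series. They encode 33 proteins, because 48 of the genes form 24 pairs of paralogs (an A and a B copy of the same protein) and 9 genes are single-copy. In 9 pairs the copies encode identical proteins.

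By way of background, the 40S subunit binds the messenger RNA and the initiator tRNA, scans to the start codon and decodes, while the 60S subunit joins amino acids. Budding yeast transcribes its ribosomal protein genes together, through Rap1, Fhl1 and Ifh1 at their promoters, and this program follows nutrients and growth signals of the TOR and protein kinase A pathways. Paralogs share a protein but not a promoter, an intron or flanking sequences, so that the 2 copies of a pair can be read separately as long as reads can be assigned to one of them.

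All libraries came from the diploid wild-type strain BY4743, which is homozygous for the his3Δ1, leu2Δ0 and ura3Δ0 alleles and heterozygous for lys2Δ0 and met15Δ0, grown at 25 °C in synthetic medium with glucose and mannose. Young cells were unlabeled cells, mostly daughters, left over when biotin-coated mothers were pulled out of a batch culture of 13 h. Middle cells were those mothers, and Aged cells were such mothers held by magnets for a further 24 h in a flow vessel (the MAD), so that age, magnetic beads and culture vessel cannot be told apart. RNA-Seq has 2 libraries per age, and ribosome profiling, which sequences the mRNA fragments (footprints) that ribosomes protect from nuclease, has 2 libraries each for Young and Middle cells and 1 for Aged cells.

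The RNA-Seq libraries held 476704 to 2585717 counts on coding sequences and the footprint libraries 168247 to 965156. The smallest signal taken as detectable, 3 counts, equals 1.16 to 17.8 CPM (counts per 1000000 of the library), a floor that covers counting error only. Values per library below are CPM scaled by TMM, which sets the bulk of genes equal between libraries, so that each value is a share of the mRNA and not an amount per cell. In such bulk samples, fewer cells of a type and less RNA per cell cannot be told apart. The Young libraries with replicate number 1 stood apart for these genes. Their RNA was higher than in Young replicate 2 for 53 of 57 members (median 1.90-fold), and their footprints were higher for 55 of 57 (median 2.26-fold), in libraries made from the same lysate. Of the Middle libraries, replicate 1 was also the higher one, for 48 members in RNA (median 1.61-fold) and for 39 in footprints (1.29-fold), whereas Aged RNA was higher in replicate 1 for 15. Each comparison with Young cells is therefore also given without each Young library in turn. Of 11 genes that daughter cells switch on, 3 rose in RNA of Aged against Young cells (27.3%, beside 8.02% of all genes tested). They were DSE1, CTS1 and AMN1 (log2 fold changes 1.99, 1.57 and 2.06). The change was above 0 for 10 of the 11, with a median of 0.86. In the Aged footprint library, 7 of 10 were more than 2-fold higher and 1 lower, beside 16.5% and 18.4% of all genes. The summed RNA level of the 11 genes was 579 to 1227 CPM in Young, 762 to 1354 in Middle and 1709 to 1777 in Aged libraries. None of the 11 was at 0 in RNA, and their part in the results below was not tested.

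The coding sequences of 3 pairs are shown first, without their introns, because results below turn on them. RPS30A and RPS30B encode the same protein of 63 residues and are the pair with enough counts whose RNA ratio moved most between ages. RPS29A and RPS29B, for a small zinc-binding protein of 56 residues in the head of the subunit, are the members whose footprints passed the test in Middle cells. RPS27A and RPS27B, for another zinc-binding protein, of 82 residues, were added after their values were seen, because RPS27B had the highest RNA change of all members and the copies share no window of 28 bases. Capitals mark the bases that differ between the copies of a pair.
RPS30A: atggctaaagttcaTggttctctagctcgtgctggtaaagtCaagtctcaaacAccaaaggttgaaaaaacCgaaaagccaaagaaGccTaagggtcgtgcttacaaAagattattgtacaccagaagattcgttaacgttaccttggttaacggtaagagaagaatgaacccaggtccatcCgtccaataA
RPS30B: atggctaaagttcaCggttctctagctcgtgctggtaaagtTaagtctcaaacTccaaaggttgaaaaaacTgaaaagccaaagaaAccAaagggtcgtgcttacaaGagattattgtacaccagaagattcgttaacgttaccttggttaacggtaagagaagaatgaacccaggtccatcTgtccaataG
RPS29A: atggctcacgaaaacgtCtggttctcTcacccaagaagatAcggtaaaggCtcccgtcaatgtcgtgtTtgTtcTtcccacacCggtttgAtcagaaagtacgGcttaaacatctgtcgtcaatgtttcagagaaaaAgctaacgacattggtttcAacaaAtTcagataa
RPS29B: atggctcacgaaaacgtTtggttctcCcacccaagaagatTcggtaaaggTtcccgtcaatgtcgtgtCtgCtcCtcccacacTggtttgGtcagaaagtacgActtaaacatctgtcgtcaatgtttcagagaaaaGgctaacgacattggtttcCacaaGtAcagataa
RPS27A: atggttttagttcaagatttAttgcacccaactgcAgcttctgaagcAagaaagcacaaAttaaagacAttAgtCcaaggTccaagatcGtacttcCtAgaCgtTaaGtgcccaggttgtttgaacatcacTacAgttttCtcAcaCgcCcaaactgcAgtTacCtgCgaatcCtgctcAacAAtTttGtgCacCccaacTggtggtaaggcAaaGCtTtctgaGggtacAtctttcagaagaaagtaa
RPS27B: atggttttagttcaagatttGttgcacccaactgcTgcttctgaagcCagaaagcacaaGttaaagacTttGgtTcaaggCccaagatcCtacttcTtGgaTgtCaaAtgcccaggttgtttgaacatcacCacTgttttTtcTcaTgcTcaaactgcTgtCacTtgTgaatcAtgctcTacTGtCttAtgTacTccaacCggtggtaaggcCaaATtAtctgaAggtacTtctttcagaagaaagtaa

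The copies of RPS30 differ at 9 of 192 bases, those of RPS29 at 14 of 171 and those of RPS27 at 39 of 249. In the reference genome (R64, the build of the files), RPS30A lies at chrXII:712537-713158 on the minus strand and RPS30B at chrXV:678191-678793 on the minus strand, each with 1 intron in its coding sequence. RPS29A lies at chrXII:898651-898821 on the plus strand and RPS29B at chrIV:340628-340798 on the minus strand, both without an intron. RPS27A lies at chrXI:158613-159212 on the plus strand and RPS27B at chrVIII:147871-148669 on the minus strand, each with 1 intron. The longest run of bases that both copies share is 74 in RPS30, 33 in RPS29 and 23 in RPS27. A footprint of 28 bases can therefore lie wholly in identical sequence in RPS30 and RPS29, but not in RPS27.

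The share of all counts that fell on the 57 members gives the broadest view. In RNA it was 0.498% and 0.288% in the Young libraries, 0.346% and 0.248% in the Middle libraries, and 1.39% and 1.71% in the Aged libraries. Of the footprints, the Young libraries held 1.13% and 0.602%, the Middle libraries 0.434% and 0.388%, and the Aged library 2.45%. The Aged libraries thus held the highest shares in both assays, and both Middle footprint libraries lay below both Young ones, whereas Middle and Young RNA overlapped. Per codon, the median member stood at percentile 76.6 of all genes in RNA of Young cells, 63.5 in Middle cells and 94.8 in Aged cells. In footprints the same percentile was 90.3, 78.7 and 95.5.

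**Figure D1:**
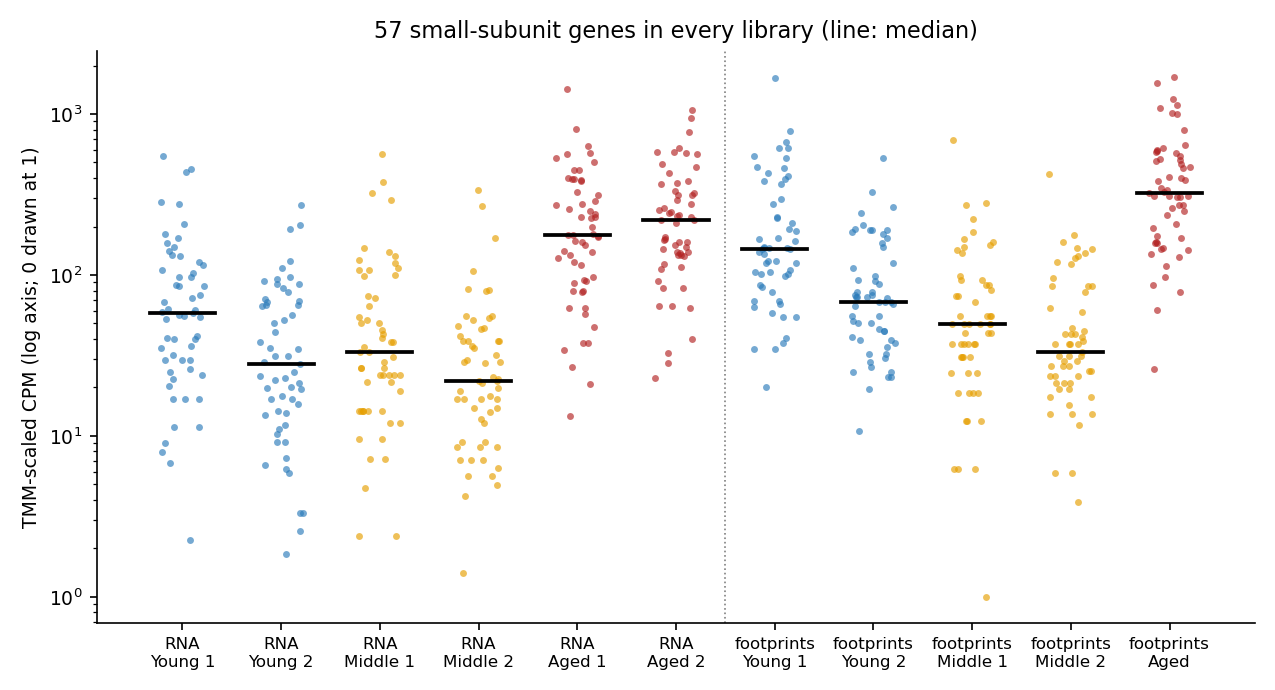
TMM-scaled CPM (log axis) of the 57 members in each of the 11 libraries, with points for genes and a line for the median of each library. The 3 Aged libraries have the highest medians of their assay, and in both assays the first Young library has a higher median than the second.

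RNA of the small-subunit genes was higher in Aged than in Young cells. All 57 members passed edgeR's filter on low counts, 50 rose at an adjusted p under 0.05 and none fell, where 8.02% of the 5897 genes tested rose and 4.93% fell. The median log2 fold change was 2.19 over the members and -0.02 over all genes tested, and all 57 members had both Aged libraries above both Young libraries, a pattern found in 29.5% of all genes tested. The log2 changes ran from 0.72 for ASC1 to 3.47 for RPS27B. The 7 members that did not pass were RPS6B, RPS9A, RPS14A, RPS20, RPS22B, RPS28B and ASC1. The large-subunit and stalk protein genes moved alike, with 65 of 81 higher, none lower and a median of 2.17.

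The 4 members with the smallest p were RPS7A, RPS13, RPS18A and RPS25A. RPS7A (YOR096W) encodes a copy of a protein that the ubiquitin ligase Not4 modifies. Its RNA stood at 29.5 and 27.9 CPM in the Young, 9.55 and 17.7 in the Middle and 226 and 246 in the Aged libraries. The groups did not overlap, and the log2 change from Young to Aged was 3.05 (SE 0.33, adjusted p 6.3e-04). RPS13 (YDR064W), a single-copy gene, had 39.7 and 20.2 CPM in Young, 38.2 and 14.1 in Middle and 274 and 261 in Aged cells, a log2 change of 3.22 (SE 0.39, adjusted p 0.0011). RPS18A had 29.5 and 19.4 CPM in Young against 177 and 209 in Aged cells, with a log2 change of 3.03 (SE 0.37, adjusted p 0.0012). RPS25A, for a protein that some viral internal ribosome entry sites require, had 60.1 and 50.6 against 258 and 312 CPM, with a log2 change of 2.38 (SE 0.32, adjusted p 0.0017). In none of the 4 did a Young library reach an Aged one.

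Leaving out a library kept all 57 changes above 0 in each of 4 cases, but not the calls. In such a fit the age with 1 library is assumed to vary like the other. Without Young replicate 2, the median was 1.67 and no member was called (49 at an unadjusted p under 0.05 by edgeR, beside 13.998% of all genes higher at that p, and no gene of the whole table was called). Without Young replicate 1, the median was 2.69, and without either Aged library it lay between these values. With all libraries, DESeq2 called 51 members higher, beside 452 of 6584 genes.

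The smallest change of all was in a single-copy gene. Of the 9, 7 passed in Aged against Young cells, and their median of 1.74 lay below the medians of the A copies (2.27, 22 of 24 called) and the B copies (2.31, 21 of 24 called), a difference that was not tested. RPS15, for a protein of the head of the subunit, had 74.9 and 16.9 CPM in Young, 21.5 and 16.9 in Middle and 314 and 219 in Aged cells (log2 change 2.63, SE 0.56, adjusted p 0.013). RPS2, for a protein of the mRNA entry side, had 158 and 94.98 CPM in Young and 570 and 575 in Aged cells (2.19, SE 0.36, adjusted p 0.0041). In both genes the 2 Young libraries differed by more, as a fold, than the 2 Aged libraries. RPS3, for a protein at the mRNA entry channel, rose from 179 and 97.2 CPM to 399 and 374 (adjusted p 0.019), RPS12 by 1.53 (SE 0.37, adjusted p 0.021) and RPS31 by 1.74 (SE 0.48, adjusted p 0.036). RPS31 encodes a fusion of ubiquitin to a ribosomal protein, and 87.8% of its 28-base windows occur only once in the genome.

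RPS20 and ASC1 were the single-copy genes that did not pass. RPS20 (YHL015W), for a protein of the head whose ubiquitination by Hel2 marks collided ribosomes, had 455 and 271 CPM of RNA in Young, 563 and 339 in Middle and 635 and 951 in Aged cells. Its log2 change in Aged against Young cells was 1.13 (SE 0.39, adjusted p 0.081), although the groups did not overlap. ASC1, the yeast counterpart of RACK1, a scaffold on the head of the subunit, had 435 and 194 CPM in Young, 322 and 169 in Middle and 566 and 467 in Aged cells (0.72, SE 0.40, adjusted p 0.27). Per codon, RPS20 had the highest RNA of the 33 proteins in both Young, both Middle and the second Aged library, and RPS31 had the highest in the first Aged library.

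**Figure D2:**
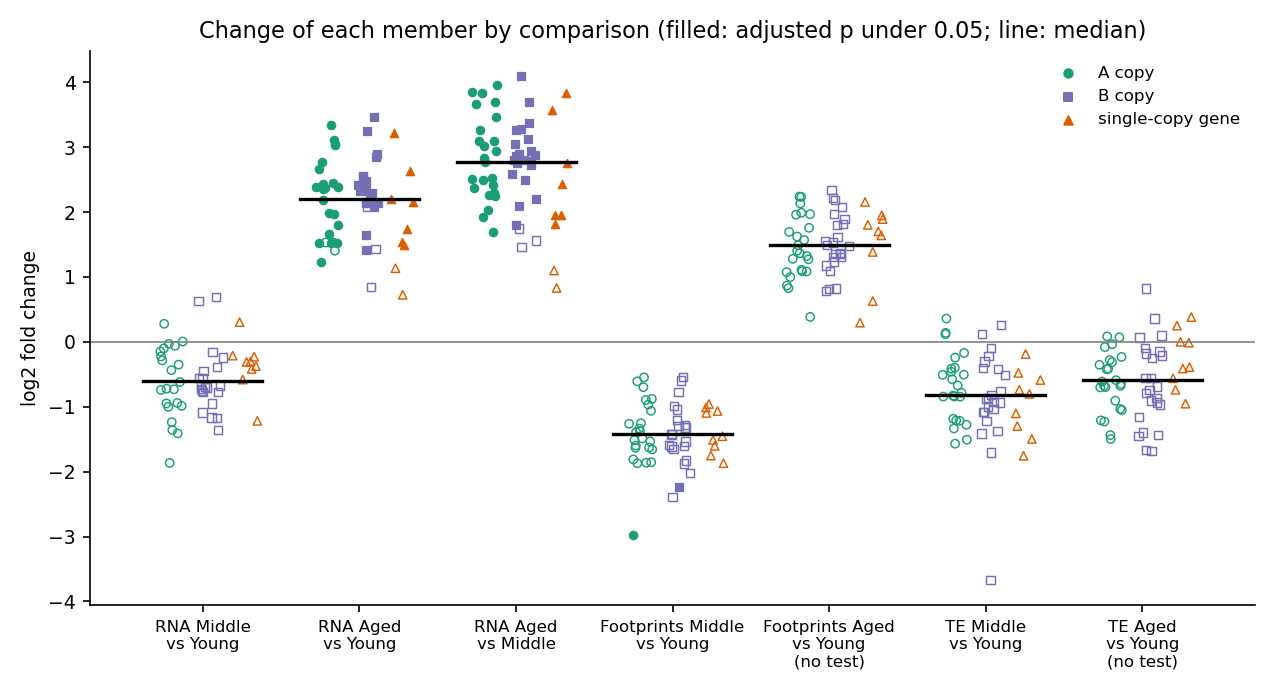
Log2 fold change of each tested member in the 7 comparisons, with A copies, B copies and single-copy genes side by side, filled symbols for an adjusted p under 0.05 and a line at the median. The RNA changes of Aged cells lie above 0 throughout (medians 2.19 against Young and 2.77 against Middle), and the footprint changes of Middle cells lie below 0 throughout (median -1.43).

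Against Middle cells, RNA of Aged cells was higher still. Here 52 of 57 members rose and none fell (4.76% of the 5674 genes tested rose and 3% fell), the median log2 change was 2.77 against 0.01 over all genes, and again all 57 members had non-overlapping groups (28.6% of all genes tested had Aged above Middle in this way). The 2 comparisons share the Aged libraries. The smallest p belonged to RPS9B, RPS7A, RPS15 and RPS27B, with log2 changes of 3.36, 3.96, 3.84 and 4.10, each at an adjusted p of 0.0013. RPS9B, for a protein that affects the accuracy of decoding, had 26.3 and 28.2 CPM in Middle and 251 and 315 in Aged cells. RPS27B had 7.16 and 8.47 CPM in Middle cells (3 and 12 counts) and 141 and 140 in Aged cells. Not called were RPS20 (0.83), ASC1 (1.10), RPS25B (1.47), RPS28B (1.56) and RPS29B (1.75). With a library left out, the median lay between 2.31 and 3.06, and fewer members were called in each case.

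RNA of Middle cells lay mostly below that of Young cells without passing the test. Of 52 members tested, none was called by edgeR or by DESeq2, where 2.11% of 5818 genes rose and 0.859% fell. At an unadjusted p under 0.05 there were 7 members, all lower, namely RPS0A, RPS6B, RPS9A, RPS18B, RPS23A, RPS24A and RPS30A, beside 11.3% of all genes lower at that p. The change was below 0 for 47 of the 52, with a median of -0.60 against -0.02 over all genes, and in 14 both Middle libraries lay below both Young ones, which is 26.9% of the members beside 29.3% of all genes tested. RPS0A, for a protein of the solvent side that 40S assembly needs, had 85.1 and 65.3 CPM in Young and 26.3 and 28.9 in Middle cells, the smallest p of the members (log2 change -1.41, SE 0.37, adjusted p 0.069). RPS9A had 26.1 and 13.6 CPM in Young and 7.16 and 4.24 in Middle cells (-1.87, SE 0.68, adjusted p 0.15). RPS30A had 133 and 67.5 CPM in Young and 50.1 and 36.0 in Middle cells (-1.24, SE 0.43, adjusted p 0.13), while RPS30B had 29.5 and 6.60 in the Young libraries and 28.6 and 22.6 in the Middle ones (0.63, SE 0.71, adjusted p 0.63). In the first 3 genes the groups were separate and in RPS30B they overlapped. The sign of the median rested on 1 library. Without Young replicate 1, it was 0.16, with 33 of 55 members above 0. Without Young replicate 2, it was -0.96.

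Footprints of the members were lower in Middle than in Young cells. All 55 members tested had a log2 change below 0 (median -1.43, range -2.97 to -0.54), beside a median of -0.01 over all 4167 genes, and in 44 of them (80%) both Middle libraries lay below both Young libraries, a pattern of 28.1% of all genes tested. Only RPS29A and RPS29B passed the adjusted threshold, both lower, which is 3.64% of the members beside 4.15% of all genes lower and 2.74% higher. These 2 included, 39 members were lower at an unadjusted p under 0.05, beside 14.4% of all genes. DESeq2 called 2. RPS29A had 34.7 and 39.3 CPM in Young cells (12 and 22 counts) and 6.18 and 3.90 in Middle cells (1 and 2 counts), then 78.6 in the Aged library. Its change in Middle cells was -2.97 (SE 0.73, adjusted p 0.039). RPS29B had 69.3 and 46.5 CPM (24 and 26 counts) in Young cells, 12.4 and 11.7 (2 and 6 counts) in Middle cells and 159 in the Aged library, with a change of -2.24 (SE 0.58, adjusted p 0.046). Both calls rest on 8 or fewer counts in Middle cells, where the floor was 17.8 CPM in the first library and 6.88 in the second.

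Next in order of p came RPS0A (log2 change -1.86, SE 0.51, adjusted p 0.053) and RPS13 (-1.87, SE 0.52, adjusted p 0.055). RPS0A had 194 and 98.3 CPM of footprints in Young, 55.6 and 31.2 in Middle cells and 406 in the Aged library. RPS13 had 162 and 75.1 CPM in Young, 37.1 and 29.3 in Middle cells and 521 in the Aged library. The Middle libraries were low in both genes and did not reach the Young ones. Among other single-copy genes the changes were -1.60 for RPS2, -1.51 for RPS20, -1.45 for RPS15, -1.10 for RPS3, -1.07 for RPS31, -1.01 for ASC1 and -0.96 for RPS12, none of which passed. RPS28B was untested here, with 0 counts in the first Middle library, which allows up to 17.8 CPM. The count of calls moved with single libraries. Without Young replicate 1 no member was called (9 at an unadjusted p under 0.05, beside 8.98% of all genes lower, median -0.72), and without Middle replicate 2 none was called (12 unadjusted, beside 9.35%, median -1.12). Without Young replicate 2, the median was -1.97.

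In the 1 Aged footprint library all 57 members lay above the mean of Young cells. With 1 library the spread between Aged libraries is unknown, and no test was made. More than 2-fold higher were 48 members and more than 2-fold lower none, where 16.5% of 4619 genes were higher and 18.4% lower by that measure. The median log2 change was 1.49 (range 0.30 for RPS20 to 2.34 for RPS7B), beside -0.02 over all genes. The Aged library exceeded both Young libraries in 55 members, all but RPS20 and RPS28A, and in 39.7% of all genes tested. The 4 largest changes among members with at least 50 mean counts were RPS7B (2.34), RPS18A (2.24), RPS7A (2.23) and RPS17B (2.22). RPS7A had 147 and 73.3 CPM in Young cells and 513 in the Aged library, and RPS7B 66.4 and 55.4 against 306. RPS20 had 780 and 191 CPM in Young and 592 in Aged cells, so that the Aged value lay between the 2 Young ones. The highest Aged values were 1705 CPM for ASC1, 1560 for RPS31 and 1233 for RPS3. Without Young replicate 2, the median was 0.99, and without Young replicate 1 it was 2.09, beside 0.01 and -0.02 over all genes.

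Translational efficiency compares the change of footprints with that of RNA, here as an interaction term for age and assay in 1 model of both. In Middle against Young cells no member of 56 passed, and of all 5334 genes 0% were called higher and 0% lower. Without adjustment, 2 members had a p under 0.05, RPS29B (log2 change -3.67) and RPS20 (-1.75), beside 1.97% of all genes lower at that p, and DESeq2 called no member. The values were below 0 for 51 of 56 members, with a median of -0.82 beside -0.07 over all genes. These values turned on the Young libraries. The median was -0.18 without Young replicate 1 of the footprints, with 36 members below 0, and without replicate 2 it was -1.33 with all 56 below 0. It was -1.32 without Young replicate 1 of the RNA, with all 56 below 0, and without replicate 2 it was -0.32 with 43. No member was called in any of these 4 fits, and RPS20 ranged from -2.55 to -0.49 over all libraries left out in turn and RPS29B from -4.69 to -2.58. RNA and footprints of 1 number and age came from the same lysate. With the lysate as a block, RPS20 (-1.43, adjusted p 0.024) and RPS29B (-3.37, adjusted p 0.036) were called lower, among 47 genes lower and 8 higher in the whole table. RPS20 had overlapping RNA levels in Young and Middle cells (log2 change 0.30), while its footprints were 780 and 191 CPM in Young and 185 and 160 in Middle cells. In RPS29B the RNA was 6.81 and 3.30 CPM in Young and 26.3 and 5.65 in Middle cells, from 6 to 11 counts per library.

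In Aged cells, efficiency was more than 2-fold lower for 12 members and more than 2-fold higher for none, without a test, beside 13% and 10% of 6028 genes. The median was -0.59, beside -0.02 over all genes, and 49 of 57 members were below 0. Among the 4 largest changes were those of RPS14B (-1.68), RPS29B (-1.66) and RPS30B (-1.45). RPS14B, whose splicing is repressed by the Rps14 protein itself, had 11.3 and 1.83 CPM of RNA in Young and 26.6 and 32.8 in Aged cells, and 118 and 64.3 CPM of footprints in Young and 158 in Aged cells. Its RNA level therefore changed more, as a fold, than its footprints, but the Young RNA values rest on 10 and 5 counts. With a library left out, RPS14B ranged from -3.02 to -0.50, RPS30B from -2.65 to -0.54 and RPS29B from -2.06 to -1.06. RPS22B had the highest value (0.82). This comparison also turned on the Young libraries. Without Young replicate 1 of the footprints the median was 0.21, and without replicate 2 it was -1.12, beside 0.01 and 0.06 over all genes. It was -1.01 without Young replicate 1 of the RNA and -0.11 without replicate 2, beside -0.01 and -0.08 over all genes.

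The paralogs of a pair did not all move in step. The A copy's share of the RNA counts of its pair is free of library scaling and, for copies of equal coding length, of length too. Between Young and Aged cells, 8 of 24 pairs changed their A to B ratio by more than 2-fold (a description without a test). In 11 pairs both Aged libraries lay on the same side of both Young ones. Middle and Young libraries were separate in this way in 10 pairs. With 2 libraries per age, such a separation in either direction is frequent without any change, so these counts show no change by themselves. The median change of the log2 ratio was -0.14, with 11 of 24 pairs above 0. In RPS30, A held 81.8% and 91.1% of the RNA counts in the Young libraries, 63.6% and 61.4% in Middle and 75.5% and 67.6% in Aged cells. The mean log2 ratio changed by -1.40 from Young to Aged cells, and the Young libraries were above all others. In footprints A held 58.1% and 64.4% in Young, 31.2% and 51.9% in Middle cells and 55.1% in the Aged library. Here the Aged value lay below both Young ones too, but from 1 library. Its 95% counting interval (49.8% to 60.3%) overlapped those of the Young libraries (47.0% to 68.7% and 50.9% to 76.4%).

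RPS23, for a protein of the decoding center that carries a hydroxylated proline, had an A share of 54.5% and 56.9% in Young, 44.9% and 47.6% in Middle and 29.1% and 41.2% in Aged RNA. The 3 ages did not overlap, and the mean log2 ratio changed by -1.23 from Young to Aged cells. Its footprint share was 47.6% and 46.3% in the Young libraries, 40.9% and 51.5% in the Middle libraries and 42.5% in the Aged library (-0.26 against Young cells). RPS0 had 54.3% and 74.2% in Young, 40.7% and 57.7% in Middle and 46.2% and 44.2% in Aged RNA (-1.16), and in footprints 64.4% and 59.8%, 60% and 57.1%, and 51.1%. In RPS0 the share of A thus lay lower in Aged than in Young cells in both assays, with 1 Aged library in footprints. The 95% counting interval of that library (47.4% to 54.7%) overlapped those of the Young libraries (54.4% to 73.6% and 49.0% to 69.9%). With the Young libraries summed, the interval was 55.1% to 69.1%. RPS4 (0.30), RPS26 (-0.21) and RPS16 (0.16) completed the 6 pairs with at least 10 counts of each copy in every RNA library whose ratios changed most, and their changes were below 2-fold. RPS26, for a protein at the mRNA exit that the chaperone Tsr2 delivers, kept 69.3% to 78.1% of its RNA counts on the A copy in all 6 libraries.

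Pairs with fewer counts were picked after their values were seen, and some of them held larger changes. RPS22, whose A copy has no intron in its coding sequence, had an A share of 54.4% and 22.6% in Young and 44.4% and 36.4% in Middle against 68.0% and 72.3% in Aged RNA, a change of 1.98 in the log2 ratio. Its footprint share was 56.5% and 48.1% in the Young, 75% and 68.2% in the Middle libraries and 64.3% in the Aged library. RPS18 had 34.2% and 38.1% in Young, 70% and 43.6% in Middle and 60.4% and 58.3% in Aged RNA (1.35). In footprints RPS18 had 46.9% and 47.2% in the Young, 55.6% and 61.3% in the Middle libraries and 52.9% in the Aged library. RPS27 had 42.9% and 77.3% in Young, 76.9% and 73.3% in Middle and 28.8% and 45.4% in Aged RNA, and 20.6% (58 counts of A beside 224 of B) in Aged footprints against 29.3% and 45% in Young cells. The Young RNA libraries of RPS22 and RPS27 differed widely from each other, and in RPS27 they overlapped with the Aged ones. The Middle shares rest on few counts. In the first Middle RNA library, A and B had 8 and 10 counts in RPS22, 14 and 6 in RPS18 and 10 and 3 in RPS27. In the first Middle footprint library they had 6 and 2 in RPS22 and 5 and 4 in RPS18. With the libraries of an age summed, RPS14 and RPS28 leaned to the A copy, with 82.3% to 90.4% and 81.0% to 91.6% of the RNA counts, and RPS9 to the B copy, with A shares of 15% to 28.04%.

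**Figure D3:**
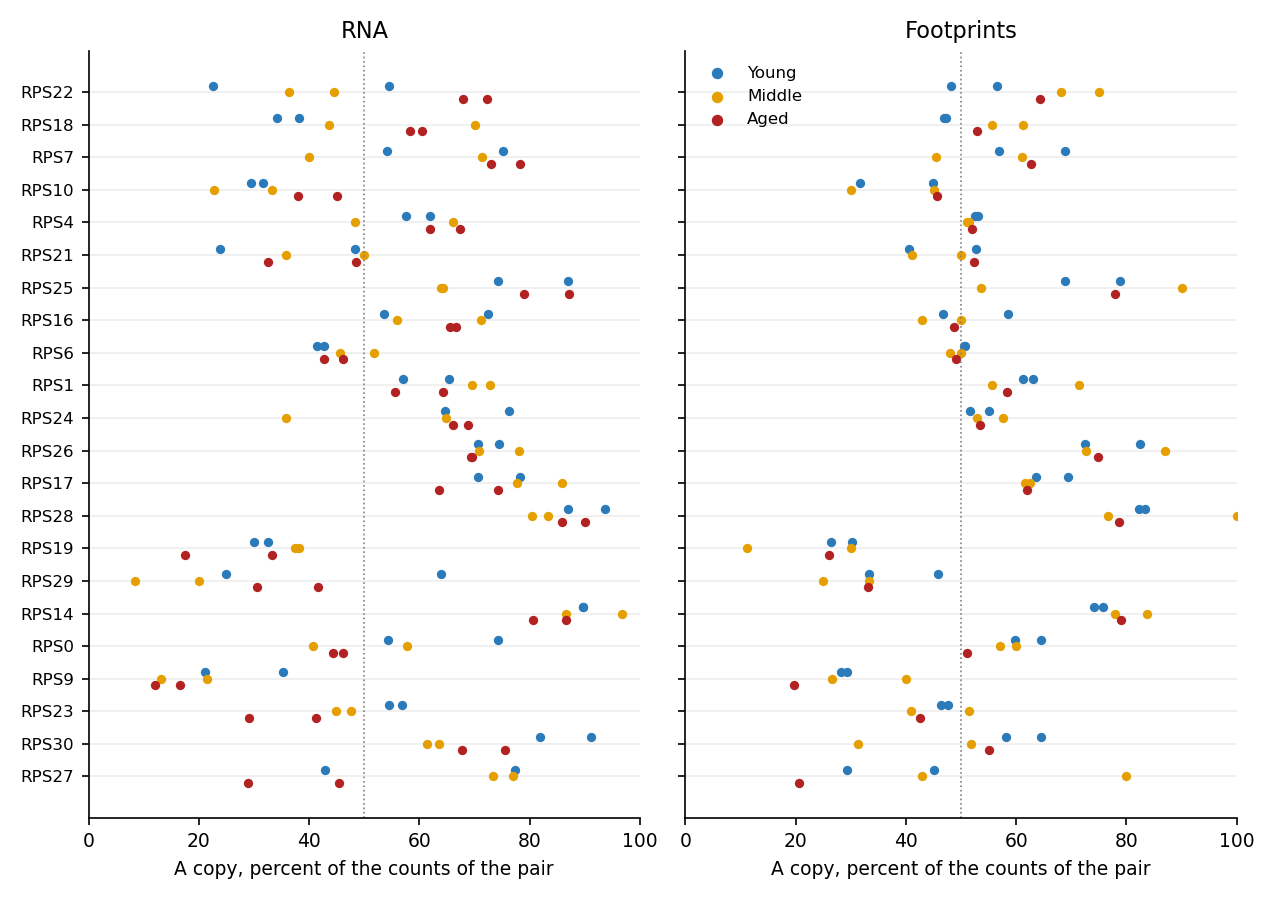
A copy's percentage of the counts of its pair in every library, for RNA (left) and footprints (right) of 22 pairs, with points for libraries colored by age and pairs ordered by the change of the RNA ratio from Young to Aged cells. RPS30 and RPS23 have both Aged RNA libraries below both Young ones, RPS22 and RPS18 have them above, and footprint shares of RPS4 and RPS6 stay near 50% in all libraries.

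How far the copies can be told apart by their sequences differs widely. Coding sequences of the pairs are 84.3% (RPS27) to 99.2% (RPS6) identical. Of the 28-base windows of the A copy, 83.0% occur in the B copy too in RPS6, 63.9% in RPS4 and 61.3% in RPS24, against 0% in RPS27 and RPS28. The longest identical stretch in RPS6 is 311 bases. In the 4 pairs that share most of their windows, the mean log2 ratio of A to B in footprints was at most 0.23 in size (median 0.11), while in RNA, read as longer fragments, it had a median size of 0.48. In the 13 pairs that share 0% to 14.5%, the median size was 0.71 in footprints and 0.97 in RNA. RPS6A and RPS6B had 393 and 381 CPM of footprints in the first Young library and 193 and 189 in the second, but 207 and 278 and 78.5 and 111 CPM of RNA. How reads that fit both copies were assigned is not stated in the sources used here, and its part in the shares was not tested.

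**Figure D4:**
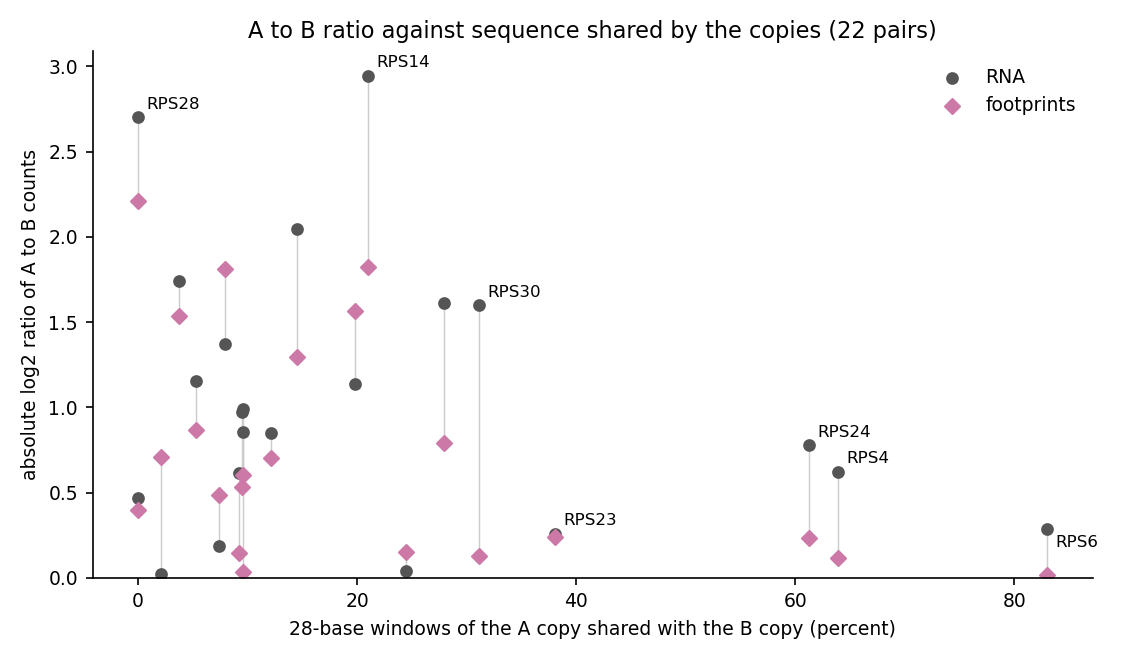
Size of the mean log2 ratio of A to B counts (RNA and footprints joined by a line) against the percentage of 28-base windows that the copies share, for 22 pairs. The 3 pairs on the right (RPS24, RPS4 and RPS6) have footprint ratios of 0.23 or less, below their RNA ratios.

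Footprints per RNA of the members were set against the share of their windows that are unique in the genome. Over the 57 genes in Young cells, Pearson's r was -0.05 and Spearman's rho -0.03, for Middle cells they were -0.19 and -0.21, for Aged cells -0.01 and 0.01, as a description in which the points share libraries and paralogs share reads. With the copies of each pair summed, 29 of 33 proteins were called higher in RNA of Aged against Young cells, with a median of 2.09. In the same fit 449 of 5873 genes were called higher.

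The 33 proteins enter the subunit in equal numbers, and their levels per codon, copies summed, were more even in some libraries than in others. The SD of the log2 footprint level over the proteins was 0.73 and 0.67 in Young, 0.99 and 0.74 in Middle and 0.44 in the Aged library. For RNA it was 0.99 and 1.01 in Young, 1.14 and 1.09 in Middle and 0.71 and 0.74 in Aged cells. Footprint levels were thus more even than RNA levels of the same lysate in each Young and Middle lysate, and the Aged libraries were the most even of each assay. The Aged libraries also held 7443 and 24420 RNA counts and 23655 footprint counts on the members, against 1651 to 7436 and 730 to 4700 in the others, and the part of counting error in these SDs was not tested. In RNA the highest protein exceeded the lowest 21.03-fold and 19.1-fold in Young, 38.1-fold and 30.4-fold in Middle and 6.83-fold and 6.45-fold in Aged cells. RPS20 had 4.06 and 2.42 CPM per codon in Young RNA, beside medians of 0.717 and 0.387 over the 33 proteins. In Aged RNA RPS20 had 5.67 and 8.49 and RPS31 9.94 and 7.45, beside medians of 2.29 and 2.62.

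**Figure D5:**
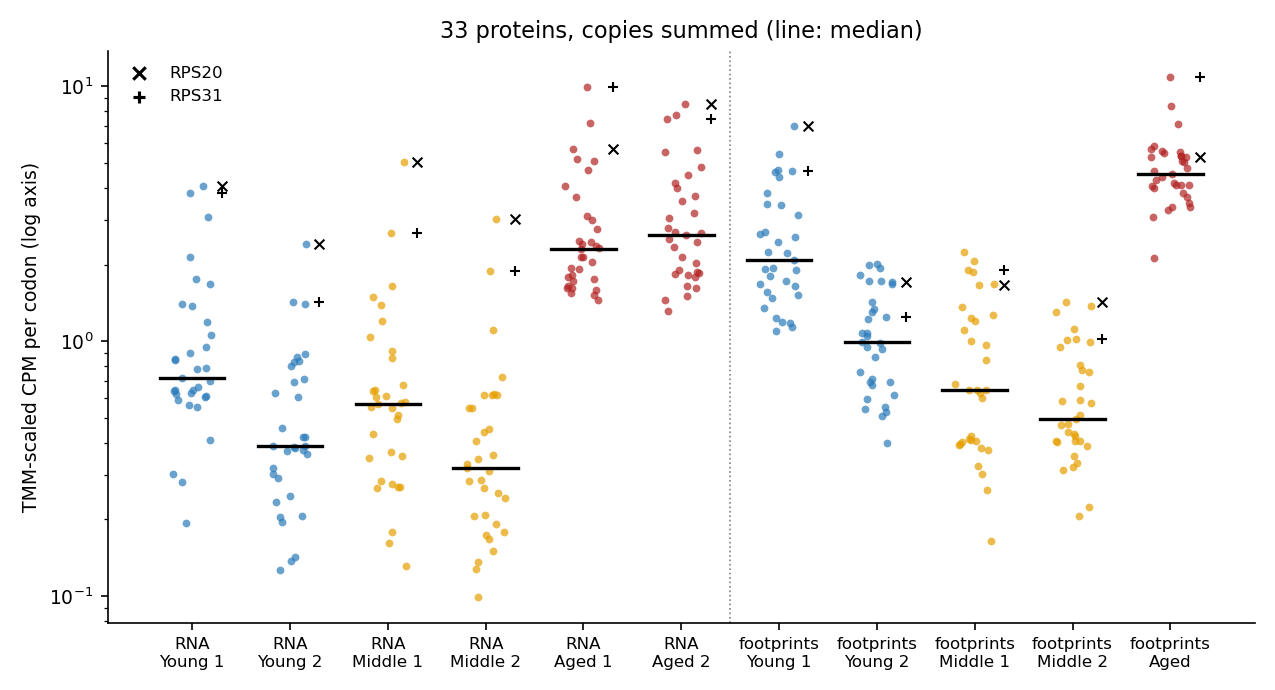
TMM-scaled CPM per codon (log axis) of the 33 proteins with paralog counts summed, in each library, with a line at the median and marks beside the column for RPS20 and RPS31. The points are closest together in the Aged footprint library (SD of log2 0.44) and farthest apart in Middle RNA (1.14 and 1.09).

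The members share gene structures that few yeast genes have. An intron interrupts the coding sequence of 37 of the 57 (64.9%), beside 4.53% of the coding sequences in the annotation. Members with an intron had a median log2 change of -0.72 in Middle RNA (35 tested) and 2.32 in Aged RNA (37 tested), and those without one -0.31 (17 tested) and 2.16 (20 tested), differences that were not tested. Promoters, taken as the 300 bases from 250 before to 50 after the start of the coding sequence, were searched on both strands for the core of the Rap1 site (ACCCNNACA) and for GACGCA, the hexamer linked to Fhl1. The Rap1 core was found in 4 members (7.02%) and 2.84% of 5987 promoters, and the hexamer in 4 members (7.02%) and 6.26%. These matches are letters in a window placed by the start of the coding sequence, and they describe no binding. Sites more than 250 bases before that start were not searched.

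Genes that regulate, build or modify the subunit were read from 3 lists, against the same background as the members. Of 12 regulators of ribosomal protein gene transcription, SCH9, the kinase downstream of TOR, rose in Aged against Young RNA (log2 change 1.23, SE 0.30, adjusted p 0.021). That is 8.33% of the list, beside 8.02% of all genes. No other regulator passed in either direction, and the median over the list was 0.00. Of 18 assembly factors, none passed in Aged RNA by edgeR (1 at an unadjusted p under 0.05, median 0.19). In Middle footprints, UTP22 and PRP43, a component of the early precursor and a helicase of ribosome assembly and splicing, were lower (-3.77 and -2.79, adjusted p 0.022 and 0.026), 2 of 12 tested (16.7%, beside 4.15% of all genes). Of 13 factors that modify or read small-subunit proteins, 12 were tested in Aged RNA, where 2 rose (16.7%, beside 8.02% of all genes) and 1 fell (8.33%, beside 4.93%). HMT1, a protein arginine methyltransferase, rose (1.74, adjusted p 0.040), as did STM1, which clamps idle ribosomes (1.39, adjusted p 0.026), and RQT4, a subunit of the complex that splits collided ribosomes, fell by 1.33 (adjusted p 0.036). STM1 was also higher in Aged than in Middle RNA (1.97, adjusted p 0.0064).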

How the data were processed

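RNA-Seq and ribosome profiling libraries of Young, Middle and Aged BY4743 cells were analyzed. The deposited tables hold counts of reads per coding sequence, which the authors made with Fastp, removal of non-coding RNA reads and alignment to S288C (R64) with STAR 2.7.0a. They placed reads by offsets and left out the codons at both ends. The other deposited column is the number of codons so counted. The use of strand and the handling of reads with several positions are not given in the sources used here.

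Counts were tested in R 4.3.3 with edgeR 4.0.16 (filterByExpr, TMM, quasi-likelihood, two-sided, Benjamini-Hochberg over all genes tested, threshold 0.05), 1 fit per pair of ages, and with DESeq2 1.42.0 as an alternative. The SE of a log2 change is its size over the square root of the F statistic. Replicate means libraries with separate titles, and the study names biological replicates for Young and Middle cells. No source used here says so for Aged cells, and p-values measure the spread between libraries. Footprints and efficiency in Aged cells rest on 1 footprint library and were given as fold changes without a test. In A to B ratios, 0.5 counts were added to each copy. Windows, introns and sequences come from RefSeq R64, with Python 3.11.15 and Biopython 1.88. Of 6668 coding sequences, 5988 matched the annotation.

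The members and lists were chosen with earlier results of these data known. Values of a few members are not reported here by name and their pairs are not plotted, but they enter all counts and medians. Named genes are the single-copy members, the 4 with the smallest p in each direction, the copies of the 6 pairs with the largest RNA ratio change and at least 10 counts of each copy in every RNA library, and, where untested, the 4 largest fold changes with at least 50 mean counts. RNA and footprints of 1 lysate were paired (correlation of deviations over 5574 genes 0.383 in Young and 0.276 in Middle cells), since the study drew both from it. The alternatives were scaling by library totals, by the size factors of DESeq2 or by TMM within each assay or leaving ribosomal protein genes out, no filter, at least 10 counts in every library, a joint fit of the 3 ages, summed paralogs, blocks by replicate number or lysate, each library left out, 1 count added, and windows of 21 and 100 bases.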

Additional observations from a re-analysis of the deposited data

Results flagged for a closer look

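In 43 of the 57 members both Middle footprint libraries lay below both Young ones while the Aged library lay above them, a pattern seen in 5.87% of the 4619 genes tested in Aged footprints. The 2 comparisons share the Young libraries, there is 1 Aged footprint library, and the difference between the Middle and the Aged change was not tested in footprints.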

How the results depend on the processing

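The share of tested members called higher in RNA of Aged cells kept within 1.5 times under every setting that used all libraries (29 and 30 of 33 with paralogs summed, 45 of 51 and 35 of 38 with at least 10 counts in every library). Calls in Middle footprints did not. Members called lower in Middle footprints numbered 4 with DESeq2's size factors (of 192 genes lower in all), 1 with library totals (of 178, with the median of all genes at 0.18), 7 with TMM without ribosomal protein genes (of 230), 27 with no filter (of 382), 9 of 20 under a minimum of 10 counts per library (of 170), 7 in the joint fit (of 226), 4 of 33 with paralogs summed (of 227) and 25 with the replicate block (of 400). In Middle RNA, 1 was lower in the joint fit (of 120 genes lower in all) and 2 with the replicate block (of 204). In Middle efficiency 2 were lower with the block by lysate (of 47). In Aged efficiency, 3 of 33 summed proteins were more than 2-fold lower, beside 773 of 6004 genes. Leaving out 1 library gave 0 to 7 lower in Middle RNA, 0 to 52 higher in Aged against Young RNA, 31 to 51 higher in Aged against Middle RNA, 0 to 45 lower in Middle footprints, 27 to 54 higher in Aged footprints, and 0 to 4 higher and 4 to 31 lower in Aged efficiency. The cause was not tested.

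Signs of single genes turned only with a library left out. In Middle RNA, RPS30B ranged from -0.24 to 1.92 and RPS20 from -0.045 to 0.73. In Middle footprints, RPS31 ranged from -1.75 to 0.17 and ASC1 from -1.62 to 0.041. In Middle efficiency, the ranges were -0.20 to 0.80 for RPS9A, -0.74 to 0.94 for RPS21B, -0.76 to 0.63 for RPS6B and -0.69 to 0.68 for RPS24A.

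The study parted Young and Middle cells from batch cultures and loaded such mothers into the MAD. No source used here says that equal replicate numbers mark the same culture. The correlations of their deviations were 0.199 (Young and Middle), 0.0421 (Young and Aged) and 0.342 (Middle and Aged) in RNA and 0.0732 in footprints. RNA and footprints of 1 lysate had 0.383 in Young and 0.276 in Middle cells. Whether equal numbers share a culture was not tested, and fits with the block are given as an alternative. Blocks were not run for Aged footprints or efficiency, since the title of that library has no number, and leaving it out gives no value. With 10 counts or 1 added count, the pairs past a 2-fold change of the RNA ratio numbered 3 of 9 and 8 of 24. Depth limits the footprints, where the median gene had 11 and 20 counts in the Young, 5 and 17 in the Middle libraries and 30 in the Aged library.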
